A study of Mus musculus with 10 samples.

Results

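Transcripts of 32 Kupffer cell and macrophage marker genes were followed across 10 mouse liver arrays. The genes were chosen by name for their known roles in macrophages, with earlier results of these data known. Each was read from a single transcript cluster of the array. All 32 of 32 were measured, among 22180 named genes in the series. They comprise 8 genes typical of the liver's resident macrophages (Clec4f, Timd4, Vsig4, Cd5l, Marco, Folr2, Cd163 and Adgre1) and 24 genes shared by macrophages more widely. Values are on the log2 scale of robust multi-array averaging (RMA), so that a difference of 1 is a doubling.

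The mice were males, fasted before the liver was taken and infected some 2 weeks earlier with an adeno-associated virus (AAV) whose TBG promoter is active in hepatocytes. The vector carried either GFP as control or FST288. Follistatin is secreted and neutralises activins and related ligands, and FST288 names one of its isoforms. One background was wild-type mice kept on a high-fat diet, with the GFP vector (HFD GFP, n = 3) or the FST288 vector (HFD FST288, n = 3). The other was mice labelled LTKO, with the GFP vector (LTKO GFP, n = 2) or the FST288 vector (LTKO FST288, n = 2). The labels leave LTKO unexplained; as background, the name stands for livers lacking the insulin receptor substrates Irs1 and Irs2 and the transcription factor Foxo1. Neither the diet nor the Cre driver of the LTKO mice is given, so diet and genotype cannot be told apart in any LTKO against HFD comparison. Every group carries an AAV, and the deletion in LTKO mice is shared by both of their vector groups. Whether the replicates of a group are different mice is not given. The p-values therefore measure only how far these samples spread, which may be technical.

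Kupffer cells are the macrophages that live inside the liver sinusoids, where they take up bacteria, aged red cells, lipoproteins and debris from portal blood. They are seeded before birth, renew themselves in place, and depend on CSF1 receptor signalling and the transcription factor PU.1. When they are lost or the liver is inflamed, blood monocytes enter and take on parts of the same gene programme, with Timd4 among the last genes to appear. Interferon gamma from T and NK cells is a classical activator of macrophages.

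The vector and deletion genes followed the labels. Fst measured 5.22 to 5.39 on the 5 GFP arrays and 5.78 to 6.85 on the 5 FST288 arrays, and Foxo1 measured 6.60 to 6.86 on the HFD arrays and 4.58 to 5.15 on the LTKO arrays. Array medians lay between 2.71 and 2.75. The hepatocyte list (8 genes) had medians of 12.11 to 12.22 on the HFD arrays and 11.61 to 11.83 on the LTKO arrays. A pancreatic acinar list (8 of 10 genes measured) stood at medians of 8.44 and 7.40 for HFD FST288 replicates 2 and 3, and at 2.07 to 2.49 on the other arrays. Of the macrophage markers, 31 of 32 had a mean above the median of the named genes, and the exception was Itgam, at 2.57. In whole liver, fewer macrophages and less RNA per macrophage cannot be told apart.

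One array stood apart for these genes. LTKO FST288 replicate 2 had the highest value of all 10 arrays for 29 of the 32 markers, whereas 10.4% of all named genes peaked there. It exceeded LTKO FST288 replicate 1 for 32 of 32 markers, by a median of 1.09 (range 0.37 to 2.21), and by more than 1 for 19 of them (59.4%), against 0.803% of all named genes. The median over all named genes of the same difference was 0.0. The gap was widest for Mpeg1 (2.21), Marco (2.11), Clec7a (1.75), Timd4 (1.60) and Ptprc (1.60). The 3 markers that peaked elsewhere were Folr2 (HFD GFP replicate 1), Mrc1 (HFD GFP replicate 3) and Fcgr3 (HFD FST288 replicate 3).

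Some other immune genes were also high on LTKO FST288 replicate 2, while the sinusoidal endothelial and hepatocyte lists were not. All 8 measured genes of an interferon gamma-induced list, which was chosen after its values were seen, peaked there. Their median was 7.69 against 4.93 to 6.11 on the other arrays, and Igtp, a GTPase of the interferon response, measured 9.63 against 5.07 to 5.94. All 6 measured genes of MHC class II presentation, also chosen after the values were seen, peaked on the same array with a median of 5.62 against 3.44 to 4.31. The T and NK cell list had 4 of 10 genes highest there, with a median of 2.79 against 2.50 to 2.77. Cd3g, a chain of the T cell receptor complex, measured 4.51 against 2.48 to 2.96, and Cd3e, Klrb1c and Nkg7 also peaked there. Cd3d of the same complex measured 2.25 against 2.05 to 2.32, and Cd2, Cd4, Cd8a, Ncr1 and Gzma did not peak there either. The monocyte list had 6 of 9 genes highest there, with a median of 3.03 against 2.24 to 2.69. The list medians of neutrophils (2.30, against 2.19 to 2.56), sinusoidal endothelium (6.24, against 6.26 to 6.75) and B cells (2.86, against 2.64 to 2.88) did not exceed the other arrays, and the stellate cell median was 6.13 against 5.78 to 5.92. Of the neutrophil genes 0 of 10, and of the B cell genes 1 of 6, had a mean above the median of the named genes. For T and NK cells it was 1 of 10 and for monocytes 3 of 9. Level medians of these low-signal lists therefore say little about those cells. Because replicate 2 stood apart for the markers, the tests on LTKO FST288 livers are given with both arrays. For the markers called and some counts they are also given without replicate 2. In the second case LTKO FST288 rests on 1 array, which is assumed to vary like the other groups. The part of these immune genes in the marker values was not tested.

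**Figure D1:**
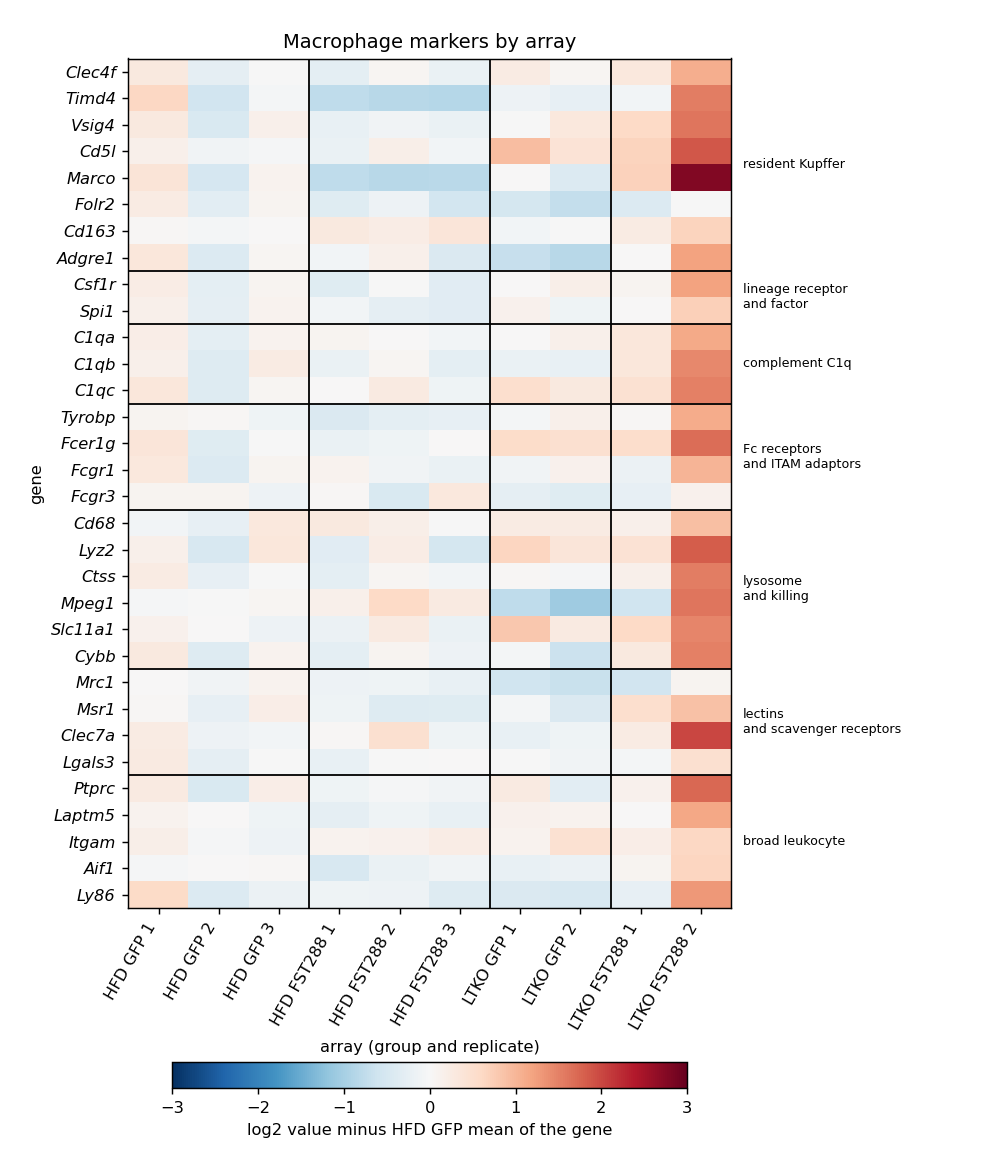
Each row is 1 of the 32 markers, ordered by role, and each column is 1 array; the colour gives the log2 value minus the mean of the 3 HFD GFP arrays for that gene, from blue (lower) to red (higher). The column of LTKO FST288 replicate 2 is red for nearly all markers, with Marco reaching 2.79, while Marco and Timd4 are blue on the 3 HFD FST288 arrays and Mpeg1 and Mrc1 are blue on the LTKO GFP arrays.

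**Figure D2:**
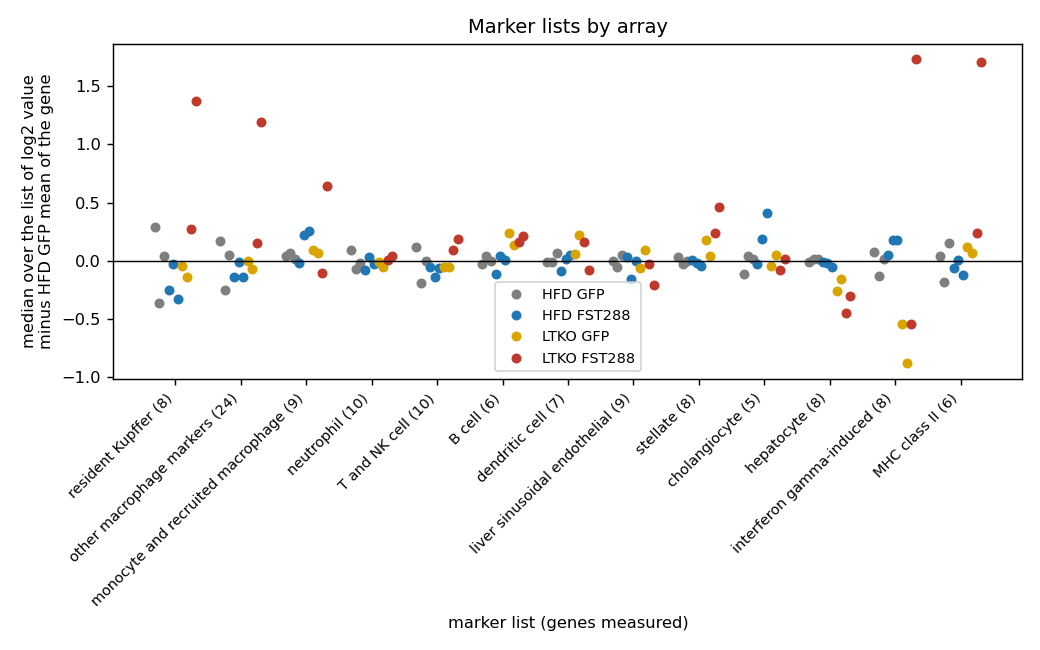
Each point is 1 array and gives the median, over a marker list, of the log2 value minus the HFD GFP mean of the gene; lists are along the horizontal axis with the number of genes measured. LTKO FST288 replicate 2 lies at 1.37 for the resident Kupffer genes, 1.19 for the other macrophage markers, 1.73 for interferon gamma-induced genes and 1.71 for MHC class II, but at 0.04 for neutrophil and -0.21 for sinusoidal endothelial genes. The interferon gamma and MHC class II lists were chosen after their values were seen, so their height on this array is no independent result. The neutrophil genes had low signal, with 0 of 10 means above the median of the named genes.

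The sequence just upstream of these genes is shown for 3 resident genes that were high together on that array, Marco, Vsig4 and Timd4, and for Mrc1, which peaked elsewhere. Capitals mark GAGGAA, the purine-rich core that PU.1 prefers, or its reverse complement TTCCTC. Each run is the 250 bases before the annotated start, 5′ to 3′ on the gene's strand, from RefSeq on GRCm38.p6.
Marco (chr1:120505025-120505274, minus strand): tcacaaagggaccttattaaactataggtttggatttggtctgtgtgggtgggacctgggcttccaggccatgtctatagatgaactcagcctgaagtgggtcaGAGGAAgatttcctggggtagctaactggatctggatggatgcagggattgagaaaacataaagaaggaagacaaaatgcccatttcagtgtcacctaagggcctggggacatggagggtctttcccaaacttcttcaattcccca
Vsig4 (chrX:96293439-96293688, minus strand): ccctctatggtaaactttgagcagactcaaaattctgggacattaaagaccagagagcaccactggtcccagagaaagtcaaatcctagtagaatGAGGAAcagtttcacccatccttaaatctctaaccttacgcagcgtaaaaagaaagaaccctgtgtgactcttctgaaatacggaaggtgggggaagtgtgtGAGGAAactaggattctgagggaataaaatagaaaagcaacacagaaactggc
Timd4 (chr11:46810549-46810798, plus strand): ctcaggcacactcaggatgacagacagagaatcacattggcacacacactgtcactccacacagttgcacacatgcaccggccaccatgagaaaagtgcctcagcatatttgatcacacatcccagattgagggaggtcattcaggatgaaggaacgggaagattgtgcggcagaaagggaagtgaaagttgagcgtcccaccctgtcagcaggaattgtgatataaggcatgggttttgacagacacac
Mrc1 (chr2:14229164-14229413, plus strand): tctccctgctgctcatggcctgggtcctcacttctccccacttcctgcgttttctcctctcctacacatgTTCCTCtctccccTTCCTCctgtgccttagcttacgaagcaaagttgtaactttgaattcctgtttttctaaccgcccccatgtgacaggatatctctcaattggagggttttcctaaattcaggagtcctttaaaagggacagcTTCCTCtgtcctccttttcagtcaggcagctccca
The letters occur 1 time upstream of Marco, 2 times upstream of Vsig4 and 3 times upstream of Mrc1, but 0 times upstream of Timd4. Of the 26 markers with a promoter entry, 16 (61.5%) held GAGGAA on either strand within this window, against 25.9% of 27025 genes. The core TGCTGA (or TCAGCA on the other strand) of the MAF recognition element, whose letters GA can also belong to a GAGGAA match, was held by 9 of 26 (34.6%) against 18% of genes. A match describes the letters and does not show that a factor binds. The markers without an entry were Tyrobp, Spi1, Csf1r, Msr1, C1qa and Adgre1.

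The first comparison asked whether hepatocyte-made follistatin moved macrophage transcripts in HFD livers. None of the 32 markers was called at an adjusted p under 0.05 by limma (0 of 32), where 0.996% of all genes were called (0.577% higher and 0.419% lower). An unadjusted p under 0.05 was held by 3 of the 32 markers and by 2672 of the 22180 genes, so the markers did not exceed that share. The fitted difference was negative for 25 markers and positive for 7, with a median of -0.12 against 0.0 for all genes. The marker with the most negative difference was Timd4, the receptor for phosphatidylserine on dying cells, at -0.81 ± 0.34 (SE; adjusted p = 0.341). Marco, a scavenger receptor for bacteria and particles, differed by -0.80 ± 0.38 (adjusted p = 0.435). Cd163, the receptor for haemoglobin bound to haptoglobin, was at 0.29 ± 0.12 (adjusted p = 0.367). The FST288 arrays lay wholly below the GFP arrays for 5 markers (Timd4, Marco, Mrc1, Tyrobp and Aif1) and wholly above for 2 (Cd163 and Mpeg1); 9.11% of all genes lay below and 9.3% above. With LTKO FST288 replicate 2 left out, 0 markers were called (1.38% of all genes), and the median difference was again -0.12. That array enters this comparison only through the shared estimate of the spread.

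In LTKO livers all 32 markers had a positive fitted difference between FST288 and GFP, but none was called (0 of 32, against 0.167% of all genes: 0.0992% higher and 0.0676% lower). The median difference was 0.58, against -0.02 for all genes. An unadjusted p under 0.05 was held by 17 of the 32 markers and by 2213 of the 22180 genes. The marker count was far lower without LTKO FST288 replicate 2, while the count over all genes changed little. Msr1, a scavenger receptor for modified lipoproteins, came nearest the threshold at 0.93 ± 0.18 (adjusted p = 0.0797), or 0.74 ± 0.21 (adjusted p = 0.283) without LTKO FST288 replicate 2. Marco differed by 1.92 ± 0.47 (adjusted p = 0.179), or 0.87 ± 0.29 (adjusted p = 0.385) without that array. Adgre1, which encodes the F4/80 antigen, differed by 1.39 ± 0.32 (adjusted p = 0.149), or 0.79 ± 0.28 (adjusted p = 0.414). Both FST288 arrays exceeded both GFP arrays for 18 markers and lay below both for 0, where 16.8% of all genes lay above and 21.1% below. Without LTKO FST288 replicate 2 the median was 0.14, with 23 markers positive and 9 negative. The remaining array then lay above both GFP arrays for 18 markers and below both for 3, against 31.3% and 36.8% of all genes. Without replicate 1 instead, 19 markers were called higher, where 0.92% of all genes were. LTKO FST288 then rested on replicate 2 alone, the array with the highest value for 29 of the 32 markers. That count therefore cannot tell a follistatin effect from the height of this array.

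The difference between the follistatin effects of the backgrounds was tested directly. It was called for 0 of 32 markers (0.216% of all genes, with 0.117% positive and 0.0992% negative), although 31 estimates were positive with a median of 0.78. Msr1 had an estimate of 1.23 ± 0.23 (adjusted p = 0.0578) and Marco one of 2.72 ± 0.61 (adjusted p = 0.0963). Without LTKO FST288 replicate 2, the median was 0.24 and these estimates were 1.04 ± 0.25 (adjusted p = 0.146) and 1.67 ± 0.35 (adjusted p = 0.0908). No single marker was thus shown to differ between the backgrounds in its follistatin effect. The 95% interval for Marco, not adjusted for the number of genes, was 1.41 to 4.03.

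The third comparison set the backgrounds side by side with the control vector. LTKO GFP livers had lower Mrc1 and Folr2 than HFD GFP livers, which made 2 of 32 markers called, both lower. That count is near the share of all genes called lower (6.4%, with 13.1% called either way), so it does not set the markers apart. Mrc1, the mannose receptor, fell by 0.63 ± 0.15 (1.55-fold, adjusted p = 0.0116). Folr2, a folate receptor of resident macrophages, fell by 0.62 ± 0.18 (1.54-fold, adjusted p = 0.0332). Over all 32 markers the median difference was -0.01, with 14 positive and 17 negative, so the markers as a list showed no common shift. The LTKO GFP arrays lay wholly above the HFD GFP arrays for 4 markers (Cd5l, Fcer1g, Lyz2 and Slc11a1) and wholly below for 7 (Adgre1, Aif1, Fcgr3, Folr2, Ly86, Mpeg1 and Mrc1), against 21.1% and 19.2% of all genes. Neither count stood clear above its share. Both calls were lost without either LTKO GFP array, with adjusted p reaching 0.0789 for Mrc1 and 0.19 for Folr2, and Folr2 was also lost without HFD GFP replicate 1 or 3. With LTKO FST288 replicate 2 left out, the standard errors of most markers were smaller and 5 of 32 markers were called, close to the 13.7% of all genes called in that fit. Cd5l was then called higher (0.67 ± 0.16, adjusted p = 0.0109), and Mpeg1 (-0.92 ± 0.13, adjusted p = 0.000377) and Adgre1 (-0.77 ± 0.21, adjusted p = 0.0264) were called lower beside Mrc1 and Folr2. The sinusoidal endothelial gene Lyve1 moved with Mrc1, at -1.0 ± 0.17 (adjusted p = 0.00113), and sinusoidal endothelium also expresses Mrc1. The other 8 measured endothelial genes were not called, and the part of endothelial RNA in the Mrc1 difference was not tested.

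The fourth comparison set the backgrounds side by side with FST288. LTKO FST288 livers had higher transcripts of 17 of 32 markers and lower of 0, where 10.3% of all genes were called and 5.05% called higher. The called genes were Marco, Timd4, Cd5l, Vsig4 and Clec4f of the resident genes, C1qa, C1qb, C1qc, Csf1r, Tyrobp, Fcer1g, Lyz2, Ctss, Slc11a1, Cybb, Msr1 and Aif1. Groups did not overlap for 20 markers, all higher, against 18.8% of all genes. The replicate 1 array alone lay above the HFD FST288 arrays for 20 markers and below for 2, against 31.1% of all genes either way. The largest was Marco at 2.53 ± 0.43 (5.79-fold, adjusted p = 0.00142). Over all 32 the median difference was 0.86, against 0.0 for all genes. These calls rested largely on 1 array: 15 of the 17 were lost without LTKO FST288 replicate 2, when the median was 0.29 and 2 of 32 markers were called higher and 1 lower (3.23% and 3.68% of all genes). Marco (1.48 ± 0.27, adjusted p = 0.00427) and Msr1 (0.79 ± 0.20, adjusted p = 0.0258) remained called without it, and were the 2 markers whose calls survived each of 10 refits with a different array removed. Mpeg1, which was not called with both arrays (0.16 ± 0.41, adjusted p = 0.898), was called lower without replicate 2 (-0.95 ± 0.17, adjusted p = 0.00311). Leaving out HFD FST288 replicates 1, 2 and 3 in turn lost 10, 7 and 12 calls. Over all genes those fits called 1972, 1713 and 1677, against 2293 in the main fit. Leaving out HFD GFP replicates 1, 2 and 3 lost 4, 2 and 5 calls, with 2218, 2134 and 2151 genes called. Some calls were also lost without either LTKO GFP array. Without both acinar-high HFD FST288 arrays, that group rested on 1 array and no marker kept its call. Marco then differed by 2.49 and Msr1 by 0.83, and fewer genes of the whole series were called. With an acinar covariate 3 markers (Cd5l, Marco and Slc11a1) were called. Over all genes that setting called 1127 of 22180, against 2293 in the main fit. Msr1 was not called with the covariate, at 0.83 (adjusted p = 0.055). The comparisons share arrays (each group enters 2 of the 4), so their values for a gene are not independent of each other.

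**Figure D3:**
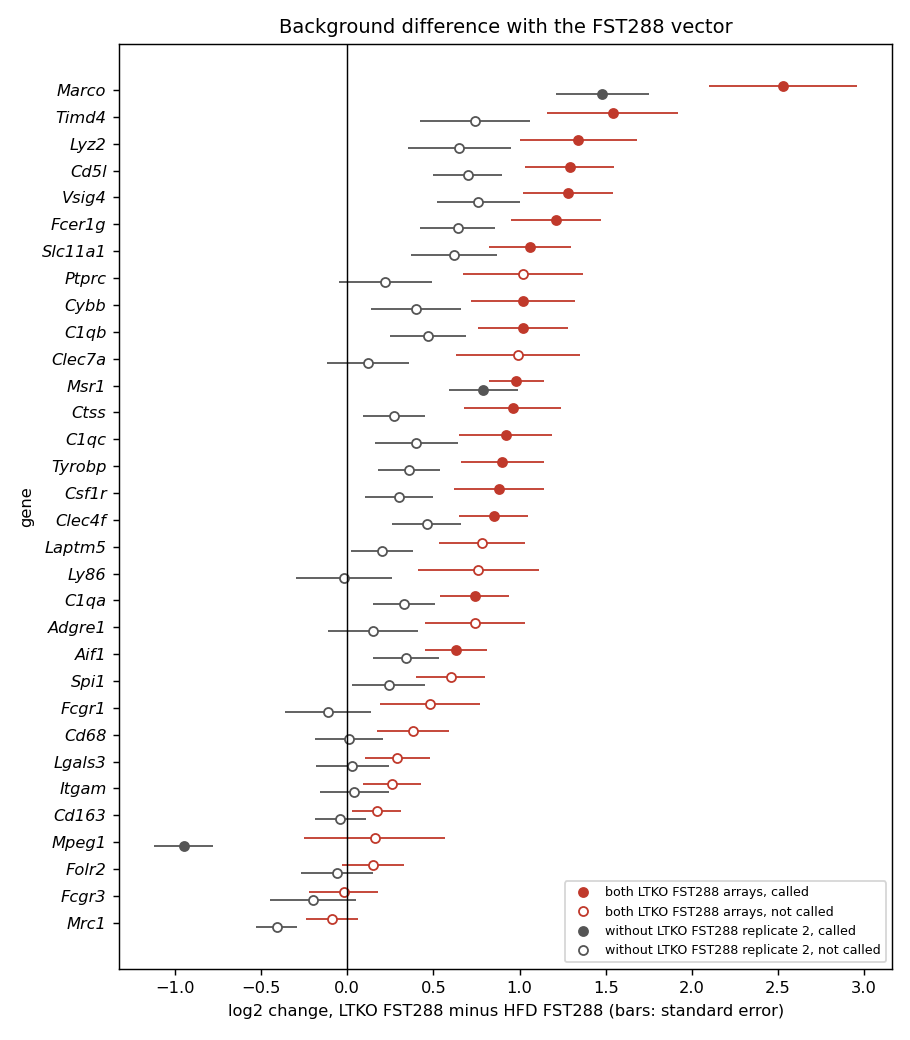
For each marker, points give the log2 difference of LTKO FST288 minus HFD FST288 with its standard error, in red with both LTKO FST288 arrays and in grey without replicate 2; filled points were called at an adjusted p under 0.05. Marco and Msr1 are filled in both, Mpeg1 moves from 0.16 to -0.95, and the remaining red filled points become open when replicate 2 is left out.

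Among the resident Kupffer genes, Marco varied most across the arrays. It measured 5.19, 4.31 and 4.91 in HFD GFP livers (replicates 1 to 3), 4.05, 3.97 and 4.0 in HFD FST288 livers, 4.82 and 4.40 in LTKO GFP livers, and 5.48 and 7.59 in LTKO FST288 livers. All 3 HFD FST288 arrays lay below the lowest GFP array of their background and within 0.07 of each other, and both LTKO FST288 arrays lay above every other array. The HFD GFP values spanned a much wider range, with an SD of 0.45 against 0.04.

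Timd4 measured 5.52, 4.31 and 4.84 in HFD GFP livers and 4.13, 4.06 and 4.04 in HFD FST288 livers. In LTKO livers it was 4.73 and 4.64 with GFP, and 4.82 and 6.42 with FST288. As for Marco, the HFD FST288 arrays were the lowest 3 of the 10 and were nearly level, while HFD GFP replicate 1 was the second highest. The LTKO against HFD difference with FST288 was 1.54 ± 0.38 (adjusted p = 0.0169) and 0.74 ± 0.32 (adjusted p = 0.234) without LTKO FST288 replicate 2.

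Vsig4, a complement receptor for C3 fragments, measured 6.68, 5.91 and 6.53 in HFD GFP livers, 6.16, 6.26 and 6.18 in HFD FST288 livers, 6.37 and 6.68 in LTKO GFP livers, and 6.96 and 7.99 in LTKO FST288 livers. Both LTKO FST288 arrays exceeded the other 8, and the HFD groups overlapped. The LTKO against HFD difference with FST288 was 1.28 ± 0.26 (adjusted p = 0.00503), or 0.76 ± 0.24 (adjusted p = 0.0775) without replicate 2. Clec4f, a lectin receptor used as a Kupffer cell marker in mice, measured 7.03, 6.48 and 6.73 in HFD GFP, 6.46, 6.79 and 6.54 in HFD FST288, 6.99 and 6.81 in LTKO GFP, and 7.05 and 7.84 in LTKO FST288 livers. Its spread was narrow apart from LTKO FST288 replicate 2, which was 0.78 above the next array. The LTKO against HFD difference with FST288 was 0.85 ± 0.20 (adjusted p = 0.0164), or 0.46 ± 0.20 (adjusted p = 0.235) without that replicate.

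Cd5l, a secreted protein that protects macrophages from death and binds lipids, separated the backgrounds more than the vectors. It measured 6.71, 6.46 and 6.53 in HFD GFP livers, 6.37, 6.74 and 6.47 in HFD FST288 livers, 7.50 and 6.98 in LTKO GFP livers, and 7.22 and 8.42 in LTKO FST288 livers. All 4 LTKO arrays lay above all 6 HFD arrays. With GFP the background difference was 0.67 ± 0.26 (adjusted p = 0.12), and with FST288 it was 1.29 ± 0.26 (adjusted p = 0.00512), or 0.70 ± 0.20 (adjusted p = 0.0533) without LTKO FST288 replicate 2.

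Folr2 and Adgre1 ran the other way with the GFP vector. Folr2 measured 6.57, 6.01 and 6.41 in HFD GFP livers against 5.80 and 5.62 in LTKO GFP livers, with no overlap, and 5.97, 6.18 and 5.78 in HFD FST288 and 5.91 and 6.32 in LTKO FST288 livers. Adgre1 measured 5.59, 4.85 and 5.30 in HFD GFP livers and 4.55 and 4.41 in LTKO GFP livers, the lowest 2 of the 10 arrays. With FST288 Adgre1 was 5.17, 5.40 and 4.80 in HFD and 5.27 and 6.46 in LTKO livers, so that LTKO FST288 replicate 1 fell within the HFD range. The LTKO GFP deficit of Adgre1 was -0.77 ± 0.29 (adjusted p = 0.112) in the fit to all arrays.

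Cd163 had narrow groups apart from LTKO FST288, with SDs of 0.05, 0.07 and 0.04. It measured 4.66, 4.58 and 4.66 in HFD GFP livers and 4.92, 4.84 and 4.99 in HFD FST288 livers, then 4.55 and 4.61 in LTKO GFP and 4.88 and 5.31 in LTKO FST288 livers. The FST288 arrays exceeded all GFP arrays in both backgrounds, but neither difference was called (0.51 ± 0.15 in LTKO livers, adjusted p = 0.271, and 0.30 ± 0.16, adjusted p = 0.658, without replicate 2).

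**Figure D4:**
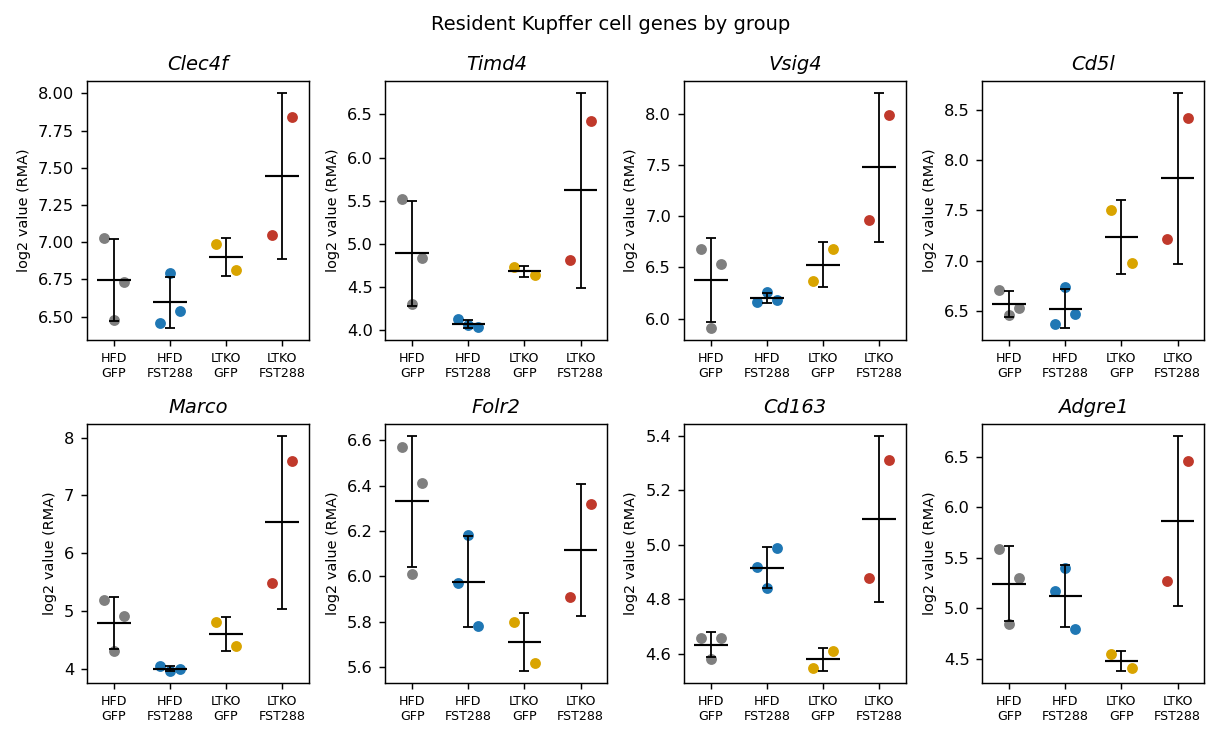
Points are single arrays of the 4 groups, with the group mean (line) and SD (bars); the vertical axis of each panel is the log2 RMA value of 1 resident Kupffer gene and does not start at 0. Timd4 and Marco lie lowest on the 3 HFD FST288 arrays (4.04 to 4.13 and 3.97 to 4.05), Cd5l is higher on all 4 LTKO arrays than on any HFD array, and LTKO FST288 replicate 2 sets the SD of its group.

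Resident and general markers were also set beside each other through their gene-wise differences, as a description without a test. The median difference of FST288 and GFP in HFD livers was -0.16 for the 8 resident genes and -0.11 for the other 24, and in LTKO livers it was 0.76 and 0.57. LTKO minus HFD livers gave -0.12 and 0.0 with GFP, and 1.06 and 0.83 with FST288. With FST288, 5 of 8 resident and 12 of 24 general markers were called higher in LTKO livers, against 5.05% of all genes. Without LTKO FST288 replicate 2 these counts were 1 of 8 (Marco) and 1 of 24 (Msr1), and the medians 0.58 and 0.26. A gap between the median log2 levels of the lists gave other sizes, since it compares levels of different probes, and it is reported only among the processing choices.

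Within HFD GFP livers most markers were high or low on the same arrays. Replicate 2 was the lowest of the 3 for 25 of 32 markers and for 8 of 8 resident genes, where 35.0% of all genes were lowest there. Replicate 1 was the highest for 25 of 32 and for 8 of 8 resident genes, against 33.4% of all genes.

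Among the genes of lineage, Csf1r, the receptor for the growth factors CSF1 and IL-34, measured 6.13, 5.61 and 5.98 in HFD GFP livers, 5.55, 5.90 and 5.57 in HFD FST288, 5.91 and 6.08 in LTKO GFP and 5.98 and 7.12 in LTKO FST288 livers. The other 9 arrays ranged from 5.55 to 6.13. The background difference with FST288, 0.88 ± 0.26 (adjusted p = 0.0461), was 0.30 ± 0.20 (adjusted p = 0.526) without LTKO FST288 replicate 2. Spi1, which encodes PU.1, ranged from 3.78 to 4.28 on the other arrays and was 4.84 on LTKO FST288 replicate 2. It was called in none of the 5 tests.

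The complement C1q genes encode the 3 chains of the molecule that starts the classical complement pathway. C1qa measured 6.04, 5.56 and 5.95 in HFD GFP, 5.94, 5.87 and 5.76 in HFD FST288, 5.86 and 6.01 in LTKO GFP, and 6.19 and 7.0 in LTKO FST288 livers. C1qb measured 6.34, 5.80 and 6.43, then 5.99, 6.26 and 5.90, then 5.99 and 5.96, then 6.52 and 7.62 in the same order of groups. Both LTKO FST288 arrays lay above the other 8 for C1qa and C1qb. For C1qc, which measured 5.44, 4.70 and 5.14, then 5.12, 5.37 and 4.96, then 5.61 and 5.39, then 5.55 and 6.60, LTKO GFP replicate 1 exceeded LTKO FST288 replicate 1. All 3 were called higher in LTKO than HFD livers with FST288 (0.74 to 1.02), and 0 of 3 without LTKO FST288 replicate 2 (0.33 to 0.47).

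Fcer1g and Tyrobp encode the adaptors that carry the signal of activating Fc and lectin receptors. Fcer1g measured 5.83, 5.11 and 5.47 in HFD GFP livers, 5.28, 5.33 and 5.48 in HFD FST288, 6.02 and 5.95 in LTKO GFP and 6.0 and 7.15 in LTKO FST288 livers, so that all 4 LTKO arrays lay above all 6 HFD arrays. Its background difference was 0.52 ± 0.26 with GFP (adjusted p = 0.251) and 1.21 ± 0.26 with FST288 (adjusted p = 0.0087), or 0.64 ± 0.22 (adjusted p = 0.122) without LTKO FST288 replicate 2. Tyrobp measured 4.25, 4.21 and 4.05 in HFD GFP, 3.73, 3.88 and 3.93 in HFD FST288, 4.10 and 4.33 in LTKO GFP, and 4.21 and 5.29 in LTKO FST288 livers. The 3 HFD FST288 arrays were the lowest of the 10 for Tyrobp, and the background difference with FST288 was 0.90 ± 0.24 (adjusted p = 0.0252), or 0.36 ± 0.18 (adjusted p = 0.336) without that replicate. The Fc receptors themselves, Fcgr1 (3.25 to 4.67) and Fcgr3 (3.38 to 4.15), were called in none of the 5 tests.

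Genes of the lysosome and of microbial killing split in how they followed the background. Lyz2, lysozyme, measured 6.53, 5.89 and 6.71 in HFD GFP, 6.05, 6.59 and 5.86 in HFD FST288, 7.03 and 6.75 in LTKO GFP, and 6.81 and 8.20 in LTKO FST288 livers. Slc11a1, a metal transporter of the phagosome, measured 3.81, 3.69 and 3.53, then 3.50, 3.94 and 3.49, then 4.49 and 3.94, then 4.26 and 5.14. For both genes the 4 LTKO arrays lay above the 6 HFD arrays, for Slc11a1 narrowly, with LTKO GFP replicate 2 and HFD FST288 replicate 2 both at 3.94 after rounding. With FST288 Lyz2 differed by 1.34 ± 0.34 (adjusted p = 0.0201) and Slc11a1 by 1.06 ± 0.24 (adjusted p = 0.0121), and neither was called without LTKO FST288 replicate 2 (0.65, adjusted p = 0.275, and 0.62, adjusted p = 0.193).

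Mpeg1, perforin-2, which forms pores in engulfed bacteria, ran opposite to them. It measured 7.24, 7.27 and 7.33 in HFD GFP livers, 7.44, 7.87 and 7.56 in HFD FST288, 6.51 and 6.21 in LTKO GFP and 6.68 and 8.89 in LTKO FST288 livers. Both LTKO GFP arrays and LTKO FST288 replicate 1 were thus below every HFD array, and LTKO FST288 replicate 2 was above every one. Mpeg1 and Mrc1 were the 2 markers with the LTKO GFP arrays and LTKO FST288 replicate 1 all below the 6 HFD arrays (8.05% of all genes), whereas Cd5l, Fcer1g, Lyz2 and Slc11a1 were the 4 with these arrays all above (8.33%). Both counts, out of 32 markers, are near the shares of all genes. The LTKO against HFD differences of Mpeg1 were -0.92 with GFP and -0.95 with FST288 when replicate 2 was left out, with a standard error of 0.13 and 0.17, against 0.41 in the fit to all arrays.

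Ctss, a cysteine protease of antigen processing, measured 7.45, 6.96 and 7.18 in HFD GFP, 6.91, 7.25 and 7.12 in HFD FST288, 7.23 and 7.16 in LTKO GFP, and 7.36 and 8.74 in LTKO FST288 livers. Cybb, the catalytic subunit of the phagocyte NADPH oxidase, measured 6.18, 5.49 and 5.98, then 5.59, 5.97 and 5.73, then 5.83 and 5.23, then 6.17 and 7.40. On the other 9 arrays Ctss ranged from 6.91 to 7.45 and Cybb from 5.23 to 6.18. Their background differences with FST288, 0.96 ± 0.28 (adjusted p = 0.046) and 1.02 ± 0.30 (adjusted p = 0.0463), became 0.27 and 0.40 without it. Cd68, a lysosomal membrane protein, ranged from 4.88 to 5.44 on the other arrays and was 6.02 there, and was called in none of the 5 tests.

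Among lectins and scavenger receptors, Msr1 kept its call in LTKO against HFD livers with FST288 when the array that stood apart was left out, as did Marco. It measured 5.86, 5.58 and 6.0 in HFD GFP livers, 5.67, 5.43 and 5.45 in HFD FST288, 5.76 and 5.39 in LTKO GFP, and 6.31 and 6.69 in LTKO FST288 livers. Both LTKO FST288 arrays lay above the other 8 and differed by 0.38 from each other. Both arrays also exceeded the other 8 for Clec4f, Vsig4, Marco, C1qa, C1qb and Aif1, which makes 7 of 32 markers, against 3.53% of all genes. Replicate 2 had the highest value for 29 of the 32 markers, so that share cannot show whether replicate 1 was also high. The Msr1 difference from HFD FST288 livers was 0.98 ± 0.16 (1.98-fold, adjusted p = 0.00126).

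Mrc1 was nearly level within each group except one. It measured 8.02, 7.90 and 8.13 in HFD GFP, 7.87, 7.89 and 7.80 in HFD FST288, 7.43 and 7.35 in LTKO GFP, and 7.44 and 8.09 in LTKO FST288 livers. The HFD FST288 arrays lay below the HFD GFP arrays with a mean difference of -0.17 ± 0.13 (adjusted p = 0.692), and LTKO FST288 replicate 1 was at the level of the LTKO GFP arrays. Clec7a, the beta-glucan receptor dectin-1, ranged from 3.72 to 4.42 on the other arrays and was 5.93 on LTKO FST288 replicate 2. Lgals3, a galactose-binding lectin, ranged from 3.98 to 4.52 and was 4.71 there. Neither was called in any of the 5 tests.

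**Figure D5:**
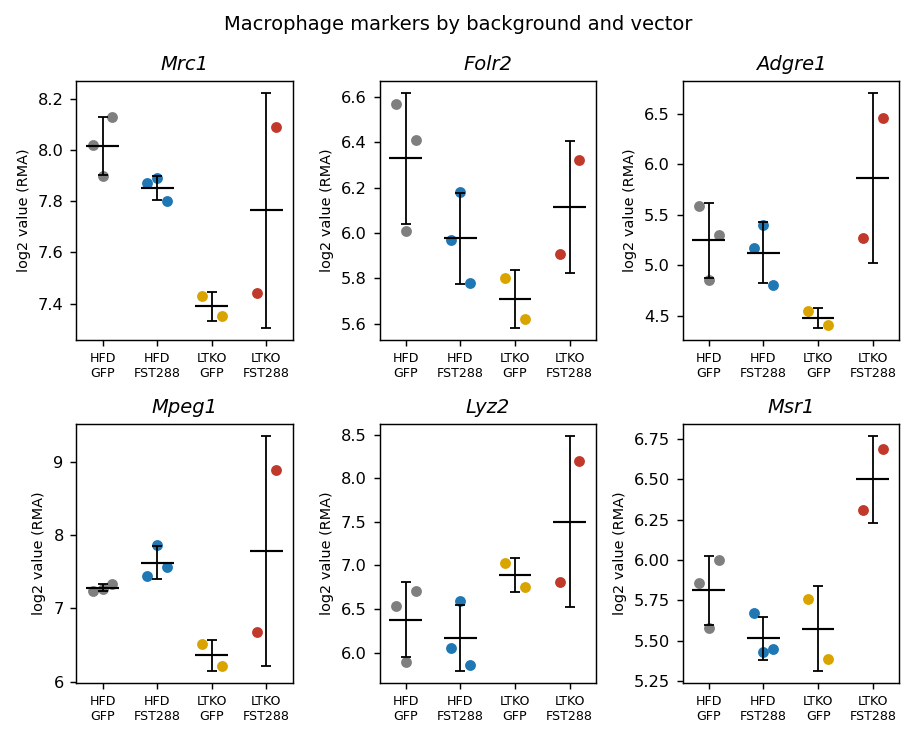
Points are single arrays of the 4 groups with the group mean (line) and SD (bars), for 6 markers; vertical axes give the log2 RMA value and do not start at 0. The LTKO GFP points of Mrc1 and Folr2 lie below all HFD GFP points, Mpeg1 splits the LTKO FST288 arrays into 6.68 and 8.89, and both LTKO FST288 arrays of Msr1 lie above the rest.

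Of the broad leukocyte genes, Aif1, an actin-bundling protein of macrophages, measured 3.43, 3.48 and 3.49 in HFD GFP, 2.99, 3.27 and 3.35 in HFD FST288, 3.24 and 3.29 in LTKO GFP, and 3.55 and 4.12 in LTKO FST288 livers. The HFD FST288 arrays lay below the HFD GFP arrays without overlap, and the LTKO FST288 arrays lay above all others. Aif1 signal was low, since the median of the named genes was 3.1 to 3.17 by array. Its background difference with FST288 was 0.63 ± 0.18 (adjusted p = 0.0382), or 0.34 ± 0.19 (adjusted p = 0.414) without LTKO FST288 replicate 2. Ptprc (the CD45 phosphatase of all leukocytes), Laptm5, Ly86 and Itgam (the CD11b integrin chain) were called in none of the 5 tests. With Cd163, Adgre1, Spi1, Fcgr1, Fcgr3, Cd68, Mpeg1, Clec7a and Lgals3 they make 13 of 32 markers called in none of the 5 tests on all 10 arrays. Mpeg1 and Adgre1 among them were called without LTKO FST288 replicate 2, as given above.

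Other genes of macrophage identity and function, from lists fixed with the markers, were set beside them. In LTKO GFP against HFD GFP livers 6.69% of all genes were called higher, 6.4% lower and 13.1% either way, so a single call in a list of 7 to 11 genes is near that share. Of 12 measured further Kupffer identity genes, 3 were higher and 1 was lower in LTKO GFP than HFD GFP livers. Id3, a transcriptional regulator of Kupffer cell identity, was 1.25 ± 0.22 higher (adjusted p = 0.00181), the iron exporter Slc40a1 was 0.93 ± 0.18 higher (adjusted p = 0.00313) and the haem-degrading enzyme Hmox1 was 0.69 ± 0.16 higher (adjusted p = 0.0111). The complement gene C6 fell by 1.45 ± 0.24 (adjusted p = 0.000973). These 4 kept their calls and directions with FST288 and without LTKO FST288 replicate 2, and hepatocytes and other liver cells also express several of them. Of 9 measured lipid-associated macrophage genes, Ctsd (0.54) and Lpl (0.75) were higher and Fabp5 (-1.46) lower, and of 9 monocyte genes 1, Fn1, was lower and 0 were higher. Fn1 measured 10.18 to 10.72 across the arrays, whereas the rest of the monocyte list reached at most 5.09 (Ly6c2). Which cells gave the Fn1 signal was not tested. Ctsd was also the 1 of 9 lipid-associated genes called for FST288 against GFP in HFD livers, at 0.37 ± 0.07 (adjusted p = 0.0276). In that comparison 0.577% of all genes were called higher. Of 9 growth factor and recruitment genes, Ccl7 was higher (0.70 ± 0.18, adjusted p = 0.0233). The dendritic cell list (7 measured) held 1 call, Cd209a, which measured 6.36 to 6.99 on the 6 HFD arrays and 8.08 to 8.34 on the 4 LTKO arrays.

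Il1b, the inflammatory cytokine interleukin 1 beta, was the 1 call among 11 cytokine and effector genes in that comparison. It measured 5.14, 5.10 and 5.17 in HFD GFP livers, 3.39, 3.69 and 3.70 in HFD FST288, 3.70 and 2.81 in LTKO GFP, and 3.53 and 6.04 in LTKO FST288 livers. The HFD GFP arrays and LTKO FST288 replicate 2 were thus high, and the other 6 arrays low. LTKO GFP minus HFD GFP livers was -1.89 ± 0.49 (adjusted p = 0.0213). With FST288 in HFD livers Il1b differed by -1.54 ± 0.44 (adjusted p = 0.141), and by -1.54 ± 0.19 (adjusted p = 0.00123) when LTKO FST288 replicate 2 was left out of the shared estimate of the spread. Slc40a1 had a follistatin difference in HFD livers of -0.68 (adjusted p = 0.0667, or 0.0109 without that array). C6, of the same list as Slc40a1, differed the other way, by 0.44 (adjusted p = 0.427, or 0.0345 without that array). None of these genes is one of the 32 markers.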

How the data were processed

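The deposited values are log2 signals from the authors; the submitters' processing notes name RMA and Affymetrix Expression Console. RMA corrects background, gives all arrays the same distribution and summarises probes. Versions are not given in the sources used here, and the base of the logarithm was inferred from RMA and from values of 0.64 to 13.21. An array gives no depth, so the number of arrays limits the precision. The 41345 clusters held 23521 with 1 symbol, 1814 with several and 16010 unlisted or without a symbol; for genes with several single-symbol clusters the brightest by mean over all 10 arrays was used, giving 22180 genes with no filter on dim genes.

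All 10 arrays entered one limma 3.58.1 fit (R 4.3.3; lmFit, then eBayes with an intensity trend) with a mean for each of the 4 groups, leaving 6 residual degrees of freedom to which moderation added 7.155. Each of 5 contrasts was tested two-sided with Benjamini-Hochberg adjustment over the 22180 genes, and a gene was called where the adjusted p was under 0.05. The error after ± is the standard error. The procedure was tested on simulated data. Named were all markers, with values per array for those called and for the resident genes, then some of the called genes of the other lists and the label genes. Further called genes of those lists are not given. The markers, lists and tests were chosen with earlier results of these data known, and the interferon gamma and MHC class II lists after their values were seen. Same-numbered arrays did not deviate together (correlations of -0.07 to 0.05), so numbers did not pair them. Promoter sequences came from RefSeq on GRCm38.p6. Alternatives covered the groups fitted, variance moderation, array weights, normalization, the choice of clusters, dim genes, a replicate block, an acinar covariate and leaving out arrays.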

Additional observations from a re-analysis of the deposited data

How the results depend on the processing

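The count of called markers for FST288 in HFD livers stayed at 0 under each of 12 other settings and in all 10 fits leaving out 1 array. In LTKO livers it was 1 at an adjusted p under 0.10 (Msr1) and 0 to 19 on leaving out an array. For LTKO against HFD with GFP the main count was 2, where 2902 of the 22180 genes were called. It became 5 when only the groups compared were fitted (2553 genes). It became 1 without the intensity trend (2649), with array weights (2645), with the replicate block (2475) or with all clusters tested (3155 of 41345). Folr2 also lost its call without HFD FST288 replicates 2 and 3. Leaving out 1 HFD array gave 1 or 2, and leaving out an LTKO array moved the count both ways. With FST288 the main count of 17 became 10 with only the groups compared, 10 with robust moderation, 11 with the replicate block, 4 with all clusters tested, 3 with the acinar covariate and 0 without HFD FST288 replicates 2 and 3; leaving out 1 array gave 3 to 26. The difference between follistatin effects was called for 1 marker (Msr1) with robust moderation, quantile normalization or dim genes left out, for 2 at an adjusted p under 0.10, and for 0 to 20 on leaving out an array.

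The gap between the median log2 levels of the 8 resident and 24 general markers has no test and depends on which probe sits at the median. Its change between groups moved as follows, and nothing rests on it. For FST288 in HFD livers (-0.25) it was -0.32 with the acinar covariate, -0.15 with 5 resident genes and -0.06 gene-wise, a summary added after seeing the data; leaving out an array gave -0.29 to -0.20. In LTKO livers (0.40) it was 0.48 without dim genes, 0.06 with 5 resident genes, 0.24 with means and 0.19 gene-wise (0.36 to 0.44). For LTKO against HFD with GFP (-0.63) it was 0.27 with 5 resident genes, -0.08 with means and -0.12 gene-wise (-0.67 to -0.58). With FST288 (0.01) it was 0.09 with the acinar covariate, 0.49 with 5 resident genes, 0.35 with means and 0.23 gene-wise (-0.03 to 0.06). For the difference between effects (0.64) it was 0.72, 0.22, 0.43 and 0.21 in the same order (0.60 to 0.69). Settings that remove arrays or add clusters leave fewer samples or more tests by construction; for the others the cause was not tested. Arrays have no read depth, and low signal limits Itgam, whose mean lay below that of the median named gene. Aif1, with a mean of 3.42, lay little above it, and most neutrophil, B cell, T and NK cell and monocyte list genes lay below it.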
